A study of Homo sapiens with 4 samples.

Results

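Melanosomes, the pigment organelles of melanocytes, need structural proteins, melanin-making enzymes, ion and solute transporters and a motor-linked GTPase, and 10 human genes for these parts were examined here: TYR, TYRP1, DCT, PMEL, MLANA, GPR143, OCA2, SLC45A2, SLC24A5 and RAB27A. They were chosen by name, with earlier results of these data known. Every probe set that the platform annotation ties to any of the 10 genes was taken, which gave 17 of the 54675 probe sets on the array. These 17 probe sets belong to 9 of the 10 genes. No probe set was named for DCT in the annotation used, and DCT was not analysed here. The single probe set of SLC24A5 is also annotated to CTXN2. The remaining 16 probe sets name 8 genes alone, and 6 of these 8 genes passed the filter on low signals and were tested.

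The cells were M14, an established human melanoma line, stably transfected and sorted for eGFP. One population carried the empty vector pIRES2 and the other the same vector with FLAG-tagged ARHGAP8 as a splice variant lacking an exon; whether either population was clonal was not given in the sources used here. Each was kept for 4 days under G418 either on plastic coated with bovine type I collagen (2D) or inside growth factor-reduced Matrigel (3D). Total RNA of each of the 4 combinations went onto 1 Affymetrix array, so every group is a single array, and the number of arrays limits the precision of all values. The 4 probe sets annotated to ARHGAP8 read between 4.02 and 14.8 and name no gene alone, so the plasmid could not be checked from them and the population is called the line labelled ARHGAP8, or the ARHGAP8 line.

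Melanin is made from tyrosine. Tyrosinase (TYR) carries out the rate-limiting oxidation, and TYRP1 and DCT act on later intermediates and stabilise the enzyme complex. PMEL forms the fibrils on which melanin is laid down, MLANA is a small membrane protein of early melanosomes that associates with PMEL, and GPR143 is a melanosomal G protein-coupled receptor that regulates organelle size and number. OCA2, SLC45A2 and SLC24A5 are membrane transport proteins that set the ionic and pH conditions of the organelle, and RAB27A tethers mature melanosomes to actin motors through melanophilin. Many of these genes are classical targets of MITF, the lineage transcription factor of melanocytes, which binds E-boxes of the form CATGTG; the longer form TCATGTG is the core of the M-box.

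The regions before the annotated starts of TYR, TYRP1, GPR143 and MLANA are shown because these are the genes whose signals differed most between arrays, and because MITF sites are known in this gene class. Each line gives the 250 bases upstream of the start in RefSeq's table for GRCh38.p14, 5′ to 3′ in the direction of the gene, with every CATGTG (or its complement CACATG) in capitals. For GPR143 the annotated gene extends upstream of this region.
TYR, chr11:89177625-89177874, plus strand: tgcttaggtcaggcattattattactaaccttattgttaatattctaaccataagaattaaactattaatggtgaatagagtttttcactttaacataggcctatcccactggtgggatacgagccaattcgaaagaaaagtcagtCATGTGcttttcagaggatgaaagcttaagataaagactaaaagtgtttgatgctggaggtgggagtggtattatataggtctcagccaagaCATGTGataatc
TYRP1, chr9:12693135-12693384, plus strand: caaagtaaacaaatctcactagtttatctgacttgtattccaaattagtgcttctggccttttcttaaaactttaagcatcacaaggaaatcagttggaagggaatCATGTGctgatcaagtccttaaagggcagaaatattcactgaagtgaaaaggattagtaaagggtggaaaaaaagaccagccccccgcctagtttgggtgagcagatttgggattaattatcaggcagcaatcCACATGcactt
GPR143, chrX:9765848-9766097, minus strand: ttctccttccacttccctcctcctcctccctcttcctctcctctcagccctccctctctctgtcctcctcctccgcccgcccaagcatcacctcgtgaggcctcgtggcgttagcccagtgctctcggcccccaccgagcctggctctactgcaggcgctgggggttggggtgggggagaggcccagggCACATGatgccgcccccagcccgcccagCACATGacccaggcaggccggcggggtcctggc
MLANA, chr9:5890639-5890888, plus strand: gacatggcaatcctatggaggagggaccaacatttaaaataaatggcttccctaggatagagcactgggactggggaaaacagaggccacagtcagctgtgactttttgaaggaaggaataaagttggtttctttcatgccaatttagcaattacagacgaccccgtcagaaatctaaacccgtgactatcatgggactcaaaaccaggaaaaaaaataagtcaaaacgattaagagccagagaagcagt

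CATGTG occurred on either strand in 9.42% of the 35116 promoter regions of this length in the table, TCATGTG, which overlaps it, in 2.52%, and CACGTG in 6.34%. TYR held 2 CATGTG matches, at 104 to 99 and at 12 to 7 bases before the start, the first of them within TCATGTG. TYRP1 also held 2, at 144 to 139 bases, within TCATGTG, and at 11 to 6 bases. GPR143 held 2 on the opposite strand, at 61 to 56 and 33 to 28 bases, both within TCATGTG. MLANA held none of the 3 motifs in this window, nor did any of the 5 entries of RAB27A. OCA2 and SLC24A5 held 1 CATGTG each, and 1 of the 2 entries of DCT held 2. PMEL and SLC45A2 had no entry. A match is a string of letters and was not tested for binding.

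Signals are given on the deposited linear scale after rescaling to a common trimmed mean. A signal of 72.3, the median of all scaled signals outside the control probe sets, served as the floor: lower values were set to it before log2 was taken, and no fold is given where both sides lie below it. Differences between arrays are log2 ratios. The additive model estimates a plasmid term (ARHGAP8 over empty vector, averaged over the cultures) and a culture term (3D over 2D, averaged over the lines). It was fitted with limma, two-sided, with Benjamini-Hochberg adjustment over all 13239 genes tested and a threshold of 0.05. Adjusted p values below are of this kind, except those of alternative settings, which were adjusted over the features each setting tested. The model's single residual degree of freedom is the difference of differences, which holds array noise and any real interaction. The moderated standard error (SE) weighs this 1 degree of freedom against 19.4 from the trend over all genes. A gene's own interaction therefore enters its SE with the weight of 1 degree of freedom. Where it is large it still raises the SE, as for MLANA (difference of differences 1.67, SE 0.24). Variation between separately made lines or cultures does not enter it.

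The cells expressed melanocyte lineage markers outside the 10 genes, though KIT, among the regulators listed below, stayed below the floor on every array. Of 10 such markers 9 were named on the array, and all 9 lay above the floor on all 4 arrays, SOX10, MITF and S100B among them, with summed signals of 8971 and 9947 with the empty vector and 7210 and 7827 with ARHGAP8, on plastic and in gel. Among markers of other cell types, CDH1, EPCAM, KRT5, KRT14, COL3A1, LUM, PDGFRA, PTPRC, CD3E, CDH5 and VWF stayed below the floor on every array. Of 10 epithelial markers 5 were above it on at least 1 array, with sums between 1455 and 2434, and of 10 fibroblast markers 5. Among markers above the floor on all 4 arrays were KRT10 (582 to 1201), KRT18 (313 to 944), COL1A1 (179 to 253) and the endothelial PECAM1 (268 to 343). The fibroblast sums were 1000.1 and 757 on plastic, with the empty vector and with ARHGAP8, and 1087 and 1042 in gel, so they were lowest on the ARHGAP8 2D array, as the signals of MLANA and TYR were. The medians of the 5 fibroblast markers tested were -0.50 and 0.05 between the lines in 2D and 3D, and 0.05 and 0.65 between the cultures with the empty vector and with ARHGAP8; 0 of the 5 passed either test in limma, and 1 had an unadjusted p under 0.05. Of the 6 named leukocyte markers 2 were above it, with sums between 273 and 330, and of 6 endothelial markers 3, with sums between 489 and 553. The part of these markers in the differences below was not tested. The ARHGAP8 3D array stood apart in its ribosomal RNA controls, where the small-subunit probe sets had a median of 626 against 27.7 to 49.4 elsewhere. ACTB, whose 3′ signal over its 5′ signal is a measure of RNA quality, had ratios of 1.10 and 1.05 on the plastic arrays and 1.23 and 1.32 on the gel arrays. The part of these values in the results was not tested either.

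**Figure D1:**
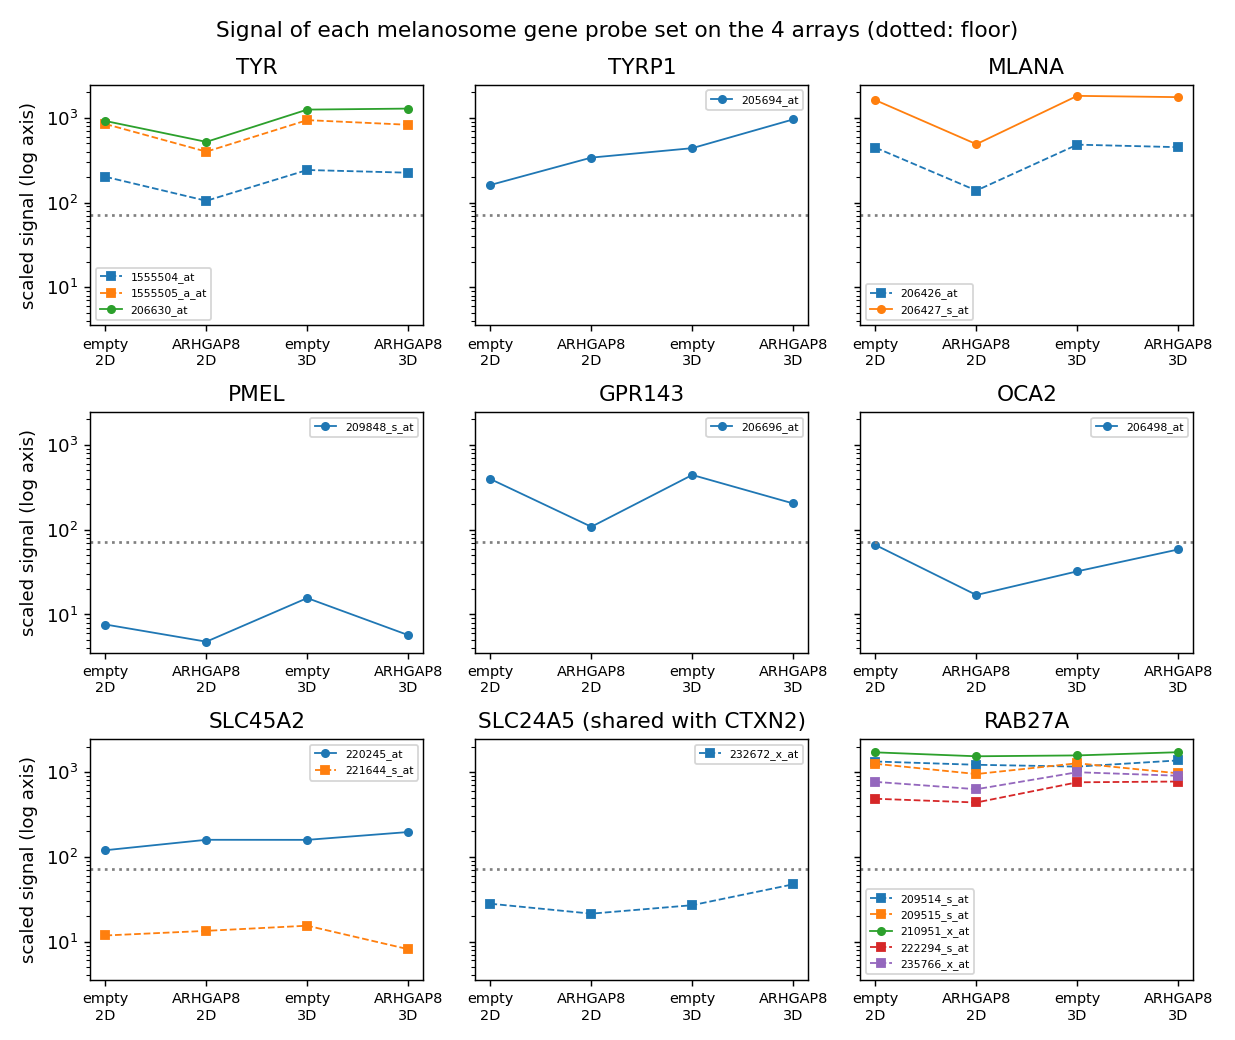
Scaled signal (log axis) of each of the 17 probe sets on the 4 arrays, 1 panel per gene, with the floor of 72.3 as a dotted line; round markers with solid lines are the probe sets that represent a gene and squares with dashed lines the others, and lines only join the points of 1 probe set. TYR, MLANA and GPR143 dip on the ARHGAP8 2D array, TYRP1 is lowest on the empty-vector 2D array, and PMEL, OCA2 and the probe set shared by SLC24A5 stay below the floor throughout.

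Among the structural genes, MLANA was far lower in the ARHGAP8 line on plastic and close in both lines in gel. On plastic its main probe set read 1614 with the empty vector and 489 with ARHGAP8, and in gel it read 1814 and 1753. The ARHGAP8 2D array thus stood alone, 3.30-fold below the empty-vector 2D array, while the other 3 arrays lay within a narrow band. The other MLANA probe set gave the same order of arrays, at 445, 139, 482 and 450, which is 3.21-fold lower in 2D. Between the lines the log2 ratio of MLANA was -1.72 in 2D and -0.05 in 3D for the main probe set, and -1.68 and -0.10 for the other. In bulk RNA, fewer cells expressing a gene and less RNA per cell cannot be told apart.

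The additive model averages these unlike ratios and gave MLANA a plasmid term of -0.89 ± 0.24 log2 (moderated SE, 4 arrays), which did not pass (limma, adjusted p 0.176). Over the 9 alternative settings the adjusted p ran from 0.0413 to 0.996, and it passed in limma under 1 of them, when only genes above the floor on all 4 arrays were tested. The culture term was 1.01 ± 0.24 and passed (limma, adjusted p 0.0138), with 3D over 2D ratios of 0.17 for the empty vector and 1.84 for ARHGAP8. That call rests on the ARHGAP8 pair, in which the 2D array was the low one: leaving out either ARHGAP8 array leaves the ratio of 0.17. It was lost under 6 of the 9 alternatives, with adjusted p in limma from 0.00134 to 0.777.

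PMEL, the fibril protein and a common melanoma marker, was not above the floor on any array. Its 1 probe set read 7.62 with the empty vector and 4.78 with ARHGAP8 on plastic, and 15.6 and 5.72 in gel. No fold is given, and the probe set was not tested.

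GPR143, the melanosomal receptor, was lower in the ARHGAP8 line in both cultures. Its only probe set read 396 with the empty vector and 108 with ARHGAP8 on plastic, and 443 and 204 in gel, so both ARHGAP8 arrays lay below both empty-vector arrays. The gap was 3.66-fold on plastic and 2.17-fold in gel. Of the 11201 genes above the floor on all 4 arrays, GPR143 had the lowest 2D ratio between the lines, at -1.87, and MLANA the next lowest; in 3D, 66 genes had a ratio as low as the -1.12 of GPR143 or lower, itself included. The gene fell for the plasmid by 1.49 ± 0.23 log2 (limma, adjusted p 0.00667). Its coefficient was -1.45 under quantile normalization, -1.48 under cyclic loess normalization and -1.29 with the floor doubled. The other alternatives could not move it, since the only probe set lay above the floor on all arrays. The call for GPR143 was lost under 6 of the 9 alternatives, with adjusted p in limma from 0.00015 to 0.996. Gel over plastic, its ratio was 0.16 with the empty vector and 0.92 with ARHGAP8, and the culture term of 0.54 ± 0.23 did not pass (limma, adjusted p 0.183).

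Among the enzymes, TYRP1 went the other way from GPR143 between the lines. On plastic its single probe set read 161 with the empty vector and 339 with ARHGAP8, and in gel it read 438 and 957. Each step was more than 2-fold within a pair: ARHGAP8 over empty vector was 2.10-fold in 2D and 2.18-fold in 3D, and 3D over 2D was 2.72-fold with the empty vector and 2.82-fold with ARHGAP8. The difference of differences was only 0.05 log2, the smallest in size of the 6 tested genes. TYRP1 rose for the plasmid by 1.10 ± 0.18 log2 (limma, adjusted p 0.0107) and for the culture by 1.47 ± 0.18 (limma, adjusted p 3.27e-05). The plasmid call was lost under 6 of 9 alternatives, with adjusted p in limma from 0.00119 to 0.996. The plasmid coefficient was 1.09 under quantile and 1.11 under cyclic loess normalization, and the other alternatives could not move it. The culture call was lost under 1 of 9, in the fit of all genes without a filter, and its adjusted p in limma ran from 6.24e-07 to 0.475.

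TYR, the rate-limiting enzyme, had the pattern of MLANA at a smaller size, on 3 probe sets. The main probe set read 917 with the empty vector and 520 with ARHGAP8 on plastic, and 1249 and 1284 in gel. The other probe sets read 844, 398, 939 and 827, and 201, 105, 242 and 225, in the same order of arrays. On each of the 3 the ARHGAP8 2D array was the lowest, between 1.76-fold and 2.12-fold below the empty-vector 2D array, and the 3D ratios between the lines were 0.04, -0.18 and -0.11. The plasmid term of -0.39 ± 0.18 did not pass (limma, adjusted p 0.595). In 3D TYR rose by 0.88 ± 0.18 (limma, adjusted p 0.00528), with single ratios of 0.45 with the empty vector and 1.30 with ARHGAP8. Leaving out either ARHGAP8 array leaves the ratio of 0.45, and 3 of 9 alternatives lost the call, with adjusted p in limma from 0.000967 to 0.655. For the other probe sets these ratios were 0.15 and 0.27 with the empty vector and 1.05 and 1.10 with ARHGAP8, and neither passed when each probe set was tested on its own (limma over 23095 probe sets, adjusted p 0.117 and 0.189).

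**Figure D2:**
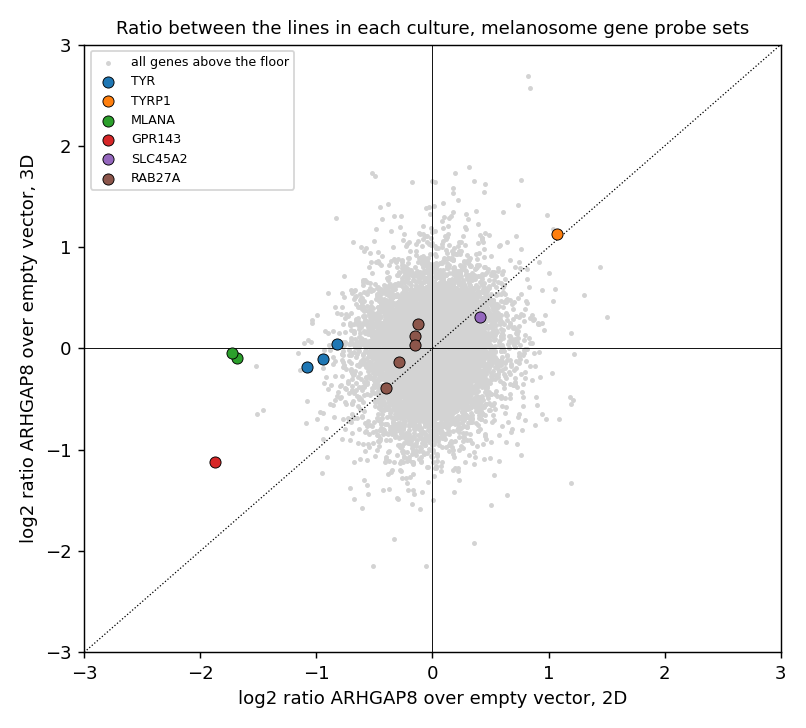
Log2 ratio of the ARHGAP8 line over the empty-vector line in 2D (horizontal axis) and in 3D (vertical axis) for the 13 melanosome gene probe sets above the floor on all 4 arrays (coloured points) and for all 11201 genes above the floor on all arrays (grey points); the dotted line marks equal ratios. TYRP1 lies near the line at 1.07 and 1.13, GPR143 at -1.87 and -1.12, and the probe sets of MLANA and TYR lie left of 0 near a 3D ratio of 0.

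Of the transporters only SLC45A2 could be read, with signals between 120 and 196. The main probe set read 120 with the empty vector and 159 with ARHGAP8 on plastic, and 159 and 196 in gel, while its other probe set read 8.15 to 15.4, below the floor. The ARHGAP8 array was higher in both cultures, by 0.41 and 0.31 log2, and the 3D array in both lines, by 0.41 and 0.30. Neither term passed (0.36 ± 0.25 for the plasmid, adjusted p 0.805, and 0.36 ± 0.25 for the culture, adjusted p 0.448, both in limma).

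OCA2 read 66.0 with the empty vector and 17.0 with ARHGAP8 on plastic, and 32.3 and 58.5 in gel, all below the floor. The probe set shared by SLC24A5 and CTXN2 read 28.0, 21.4, 26.9 and 47.5 in the same order, also below it. Neither gene was tested.

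RAB27A, the GTPase of melanosome transport, had 5 probe sets above the floor on all arrays, which did not move alike. The main probe set read 1711 with the empty vector and 1538 with ARHGAP8 on plastic, and 1575 and 1717 in gel. Between the lines its 5 probe sets spanned -0.40 to -0.13 on plastic and -0.40 to 0.24 in gel. Between the cultures the main probe set read -0.12 and 0.16 in the empty-vector and ARHGAP8 lines. One other probe set rose when tested on its own, by 0.73 ± 0.17 (limma over 23095 probe sets, adjusted p 0.0269), with signals of 485 and 438 on plastic and 759 and 775 in gel. Another read 768 and 629 on plastic and 997 and 906 in gel without passing, and the remaining pair read between -0.20 and 0.17. For the gene, the plasmid term was -0.01 ± 0.16 and the culture term 0.02 ± 0.16, and neither passed (limma, adjusted p 0.994 and 0.965).

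**Figure D3:**
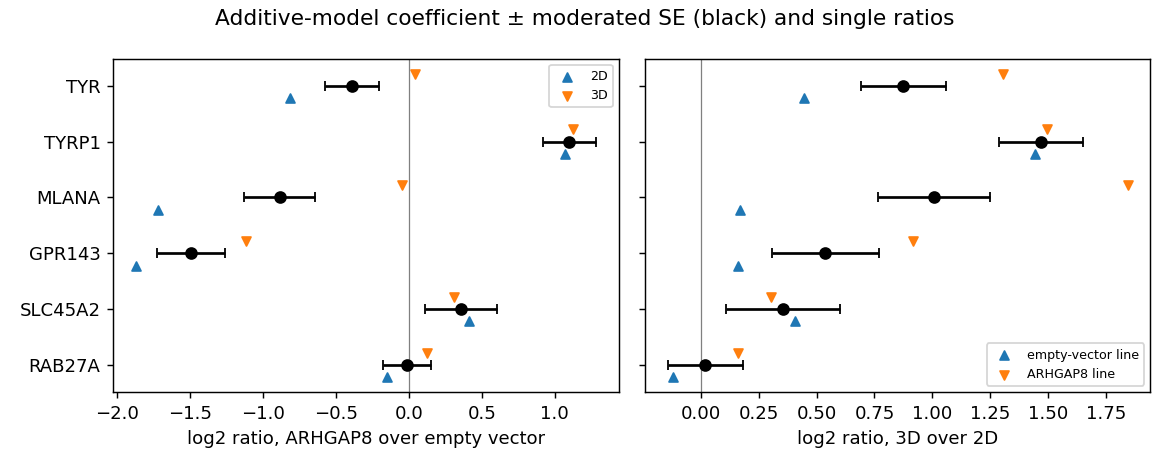
Additive-model coefficient with its moderated SE (black points and bars, 4 arrays) for the plasmid term (left) and the culture term (right) of the 6 tested genes, with the single log2 ratios as triangles: 2D and 3D on the left, empty-vector line and ARHGAP8 line on the right. The triangles of TYRP1 lie within the bar in both panels, whereas those of MLANA lie outside it on either side, at -1.72 and -0.05 and at 0.17 and 1.84.

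Counted over the 6 tested genes, the plasmid test called 1 higher (TYRP1) and 1 lower (GPR143), where 0.068% and 0.0604% of all 13239 genes were called. The culture test called 3 higher (TYR, TYRP1 and MLANA) and 0 lower, against 2.83% and 4.15% of all genes; at an unadjusted p of 0.05 in limma the counts were 4 higher and 0 lower, where 21.0% of all genes passed in either direction. The median log2 ratio of the 6 genes between the lines was -0.49 in 2D and 0.08 in 3D, beside medians of 0.00 and 0.00 over all genes tested. Between the cultures it was 0.29 with the empty vector and 1.11 with ARHGAP8, beside 0.01 and 0.04 over all genes tested. The 4 genes outside these counts were below the floor (PMEL, OCA2), not named alone (SLC24A5) or not analysed here (DCT). Without the ARHGAP8 3D array the remaining 2D ratios between the lines are -1.87 for GPR143 and 1.07 for TYRP1, and the remaining 3D over 2D ratios are 1.44 for TYRP1, 0.45 for TYR and 0.17 for MLANA.

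By size, MLANA and GPR143 were at least 2-fold lower in the ARHGAP8 line in 2D, as were 0.25% of the 13192 genes readable on that pair, and TYRP1 was at least 2-fold higher, also against 0.25%. In 3D TYRP1 was again higher (1.09% of 13899 genes) and GPR143 lower (1.3%). In the ARHGAP8 line TYR, TYRP1 and MLANA were at least 2-fold higher in gel (1.78% of 13722 genes), and in the empty-vector line TYRP1 (1.72% of 13569 genes). Among the 11201 genes above the floor on all arrays, MLANA ranked at place 14, TYRP1 at 34, TYR at 61 and GPR143 at 266 for the highest 3D over 2D ratio in the ARHGAP8 line. In the empty-vector line the same places were 3672, 56, 1497 and 3760. For MLANA the line ratio in 3D exceeded that in 2D by 1.67 log2, past the 2-fold mark that 1.56% of 11201 genes met in this direction. This difference was not tested, since no residual degree of freedom is left for it.

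Probe set by probe set, the ARHGAP8 2D array held the lowest of the 4 signals for 10 of 13 readable probe sets of these genes, as it did for 24% of 18717 readable probe sets. The 10 were those of TYR, MLANA and GPR143 and 4 of the 5 of RAB27A. Probe sets of 1 gene are not independent. All 13 read higher in 3D in the ARHGAP8 line, against 50.1% of all, and 11 in the empty-vector line, against 50%. For 12 of 13, the exception being SLC45A2, the 3D over 2D ratio was greater in the ARHGAP8 line, against 49.1% of all. Apart from the count in the empty-vector line, these counts all use the ARHGAP8 2D array.

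**Figure D4:**
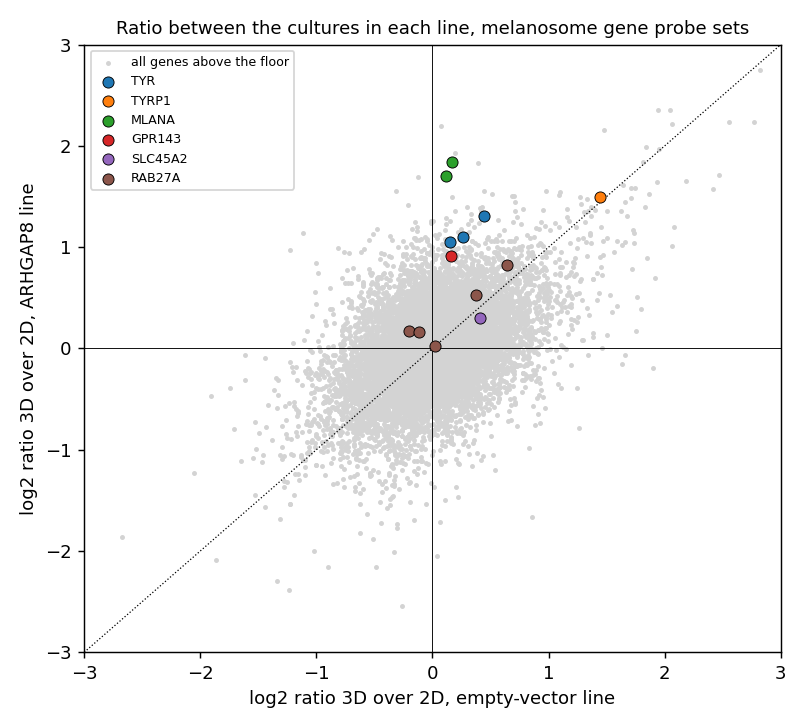
Log2 ratio of 3D over 2D in the empty-vector line (horizontal axis) and in the ARHGAP8 line (vertical axis) for the 13 readable melanosome gene probe sets (coloured points) and for all 11201 genes above the floor on all arrays (grey points); the dotted line marks equal ratios. TYRP1 lies next to the line, and the probe sets of MLANA and TYR and that of GPR143 lie above it.

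MITF, the regulator named above, was also lowest on the ARHGAP8 2D array. Its main probe set read 1904 with the empty vector and 1113 with ARHGAP8 on plastic, and 2393 and 2180 in gel. A further probe set read 1502, 940, 1698 and 1378 in the same order, and the remaining one lay below the floor. MITF rose in 3D by 0.65 ± 0.18 (limma, adjusted p 0.0277), with single ratios of 0.33 and 0.97, and its plasmid term of -0.45 ± 0.18 did not pass (limma, adjusted p 0.437). Leaving out either ARHGAP8 array leaves a culture ratio of 0.33 for MITF. Its culture call was lost under 5 of 9 alternatives, with adjusted p in limma from 0.0121 to 0.664. With the mean over probe sets its culture coefficient was 0.34. SOX10, which acts with MITF on these genes, read 1979 and 1582 on plastic and 1741 and 1114 in gel on its main probe set. It was lower in the ARHGAP8 line in both cultures, and passed neither test. Its culture ratios were -0.18 with the empty vector and -0.51 with ARHGAP8. The other SOX10 probe set read 510 and 322 on plastic and 198 and 36.7 in gel, the last below the floor. Its culture ratios were -1.37 with the empty vector and, as a bound, -2.15 with ARHGAP8.

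Of 25 regulators of pigment cells listed, 20 were tested, and ASIP, KIT, POMC, TFEB and USF1 were below the floor on every array. Of the 20, 3 rose in 3D and 0 fell, and 1 rose and 0 fell for the plasmid. Of all genes tested, 2.83% rose and 4.15% fell in 3D, and 0.068% rose and 0.0604% fell for the plasmid. At an unadjusted p of 0.05 in limma, 7 of the 20 passed for the culture and 5 for the plasmid, beside 21.0% and 8.14% of all genes. Besides MITF, SNAI2, a transcription factor of neural crest cells, rose in 3D by 0.89. CTNNB1, which encodes beta-catenin, rose by 1.08 in 3D and by 0.98 for the plasmid on its main probe set. The ratios behind these were 0.71 and 1.45 between the cultures, with the empty vector and with ARHGAP8, and 0.61 and 1.35 between the lines, on plastic and in gel; leaving out an array leaves one of each pair, the plasmid ratio being 0.61 without either 3D array. Its other probe sets read 0.03 and -0.97 between the lines on plastic and 0.38 and -0.06 in gel, and 0.36 and -0.35 between the cultures with the empty vector and 0.70 and 0.57 with ARHGAP8. With the mean over probe sets the culture coefficient of CTNNB1 was 0.57 (limma, adjusted p 0.222, in a range of 4.08e-05 to 0.566 over the alternatives) and the plasmid coefficient 0.22, and neither passed. TFAP2A, a transcription factor of the lineage, read -0.53 for the plasmid without passing. The medians of the 20 genes were -0.02 and -0.09 between the lines in 2D and 3D, and 0.08 and 0.00 between the cultures with the empty vector and with ARHGAP8.

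Genes that build and move melanosomes outside the 10 were measured more fully, with 62 of 63 listed genes named and all 62 tested. For the plasmid 0 of 62 passed, with 5 under an unadjusted p of 0.05 in limma, beside 8.14% of all genes; SYTL2, MFSD12 and RAB38 had the largest coefficients, at 0.45, -0.44 and -0.41. For the culture 5 rose and 3 fell, beside 2.83% and 4.15% of all genes, with 17 of 62 under an unadjusted p of 0.05, beside 21.0% of all genes. Those that rose were the melanosomal glycoprotein gene GPNMB (0.71), the myosin gene MYO10 (0.67), HPS3 of a trafficking complex (0.61, with other probe sets between -0.27 and 0.33), SYTL2 (0.80) and MLPH (0.59). MLPH encodes melanophilin, the partner of RAB27A, and read 1265 with the empty vector and 880 with ARHGAP8 on plastic, and 1454 and 1741 in gel. Its log2 ratios between the cultures were 0.20 with the empty vector, the value left without either ARHGAP8 array, and 0.99 with ARHGAP8. SYTL2, another RAB27A effector, read 443 and 794 on plastic and 1016 and 1055 in gel, with culture ratios of 1.20 with the empty vector and 0.41 with ARHGAP8, the value left without either empty-vector array. Those that fell were BLOC1S2 of a sorting complex (-0.64), the cystine transporter gene SLC7A11 (-0.67, from ratios of -0.43 with the empty vector, left without either ARHGAP8 array, and -0.90 with ARHGAP8), whose other probe sets read -0.35 and 0.01 with the empty vector and -0.33 and -0.04 with ARHGAP8, and MCOLN1, below the floor on both 3D arrays, with bounds of -1.09 with the empty vector and -1.41 with ARHGAP8 and a fitted mean of -1.25. With the floor doubled the MCOLN1 coefficient was -0.25 and did not pass. The list's medians were -0.10 and 0.03 between the lines in 2D and 3D, and 0.02 and 0.13 between the cultures with the empty vector and with ARHGAP8.

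Likeness of pattern was measured as the Euclidean distance between log2 values over the 4 arrays, each centred on the gene's mean, which with 4 arrays is a description only. Nearest to TYR were GRIK1 (0.06), DUSP28 (0.12) and XYLT1 (0.18). Nearest to MLANA were RNLS (0.49), LINC01504 (0.53) and XYLT1 (0.58). GPR143 was nearest to ACAN (0.43), GAL3ST4 (0.56) and BTBD2 (0.68), and TYRP1 to CTNNB1 (0.53), CCDC13 (0.55) and IFI6 (0.70). These distances use the main probe set only. Between the lines on plastic the other ACAN probe sets read -0.33 (a bound), 0.36 and -0.74, against -1.51 for the main one. Those of CCDC13 above the floor read -0.07 and 0.04, against 0.73. Another GRIK1 probe set read -0.44 (a bound), against -0.80, and lay below the floor on both ARHGAP8 arrays. The other RNLS probe set read -0.07 (a bound), against -1.14. On the ARHGAP8 2D array the main probe sets of ACAN, LINC01504 and GRIK1 read 81.0, 78.0 and 90.9, near the floor. Among the 10 genes themselves, MLANA and TYR lay 0.66 apart, MLANA and GPR143 0.89, and TYRP1 and GPR143 2.78, the widest gap of the 6 tested genes.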

How the data were processed

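Total RNA from 4 cultures was measured on 1 Affymetrix array each. The values the authors deposited are linear signal intensity values from MAS5, as the submitters' processing notes state, with 1 value for each probe set; no version or detection calls are given in the sources used here. Each array had a 2% trimmed mean of 150.0, and rescaling to a common trimmed mean changed little. Signals were floored at 72.3 and log2 taken. Gene names came from the platform's annotation table, brought up to date by gene identifier in a RefSeq table (GRCh38.p14): 41091 named 1 gene, 1801 several and 11721 none. A gene was represented by its probe set with the highest mean. Genes above the floor on at least 2 arrays were fitted in limma 3.58.1 under R 4.3.3 (additive model, eBayes with trend). The fit was also run on simulated data with additive effects and noise of equal spread for all probe sets. That run held no interaction, so it does not bear on calls of genes whose ratios were unlike. Alternatives changed the scaling, floor, filter, probe set choice or variance model, or left out an array. The 10 genes, the lists and the tests were chosen with earlier results of these data known. Named from the lists were the genes past the test and, where fewer than 3 passed, the largest coefficients up to 3, and for each called gene the 3 nearest patterns.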

Additional observations from a re-analysis of the deposited data

Results flagged for a closer look

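The log2 ratio between the lines had opposite signs in 2D and 3D for 2 of the 6 tested genes, a difference that was not tested with 1 array per group. For TYR the ratios of the main probe set were -0.82 and 0.04, a difference of 0.86, while its other 2 probe sets read below 0 in both cultures. For RAB27A they were -0.15 and 0.13, a difference of 0.28, and its 3D over 2D ratios, at -0.12 and 0.16, were opposite between the lines by the same 0.28, since both differences come from the same 4 values.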

How the results depend on the processing

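The count of tested genes past the plasmid test was 2 in the fit reported and 0 under quantile normalization, cyclic loess normalization, no filter, the mean over probe sets, every probe set as its own feature, and no variance trend in limma. At an unadjusted p of 0.05 those settings gave 1 higher gene each and from 1 to 4 lower, while from 3.79% of all features (no filter) to 7.83% (cyclic loess) passed in either direction. The count past the culture test was 3, and 0 without a filter, 1 (TYRP1) with the mean over probe sets and 1 (TYRP1) without a variance trend; it was 2 (TYR and TYRP1) under quantile and under cyclic loess normalization, and with every probe set its own feature the 3 were RAB27A, TYR and TYRP1. Without a filter 5483 genes sat at the floor on all 4 arrays and had no variance. The part of these genes in the lost calls was not tested, nor was the cause under the other settings. The fit without a filter is counted among the alternatives and gives the highest adjusted p of each range printed above. Leaving out an array leaves no residual degree of freedom, so no count can be had; the single ratios in the text are the values left. The culture calls of the listed regulators and transport genes were each lost under 2 to 7 of the 8 or 9 settings that refit all genes and gave a value, and the plasmid call of CTNNB1 under 7. No coefficient of a called gene named here changed sign under any alternative. With every probe set its own feature only the main probe set was compared, so that setting could not show a change of sign in another. One other probe set of CTNNB1 read -0.97 and -0.06 between the lines in 2D and 3D. One other of HPS3 read -0.27 and 0.04 between the cultures with the empty vector and with ARHGAP8. The median line ratio in 3D of the 6 genes was 0.08, and -0.05 with the mean over probe sets. Their median culture ratio with the empty vector was 0.29, and 0.17 with the floor doubled and 0.18 with the mean over probe sets; with ARHGAP8 it was 1.11, and 0.90 with the floor doubled. No paired analysis was possible because each group holds 1 array and the labels carry no replicate numbers. Signals near or below the floor of 72.3 limit PMEL, OCA2 and SLC24A5. Low signals also limit GPR143 on the ARHGAP8 2D array (108) and SLC45A2 on the empty-vector 2D array (120). With the floor doubled the plasmid coefficient was -1.29 instead of -1.49 for GPR143 and 0.22 instead of 0.36 for SLC45A2.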
